A study of Zea mays with 24 samples.

Results

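The MIR156 precursor genes zma-MIR156d, zma-MIR156k and zma-MIR156f were followed in RNA sequencing of maize (Zea mays) seedlings. They were taken by feature name and are 3 of the 11 MIR156 features, of 154 miRNA precursor features and of 50202 features in all. The libraries came from roots and young shoots of 2 cultivars, named ST and SS in the labels, at the 3-leaf stage. Seedlings received a salinity solution of 100 mM or water, which gives 8 groups of 3 libraries: ST shoots under salinity, ST shoots under water, SS shoots under salinity, SS shoots under water, and the same 4 for roots. The labels name no transgene or mutant allele in any group and do not say how long the treatment lasted. Levels are FPKM, that is, reads scaled by feature length and by the library's total of reads assigned to features. The genes were chosen with earlier results on their levels and salt responses known, so their salt responses are described here without a test. Tests are given only for cultivar and tissue differences averaged over both treatments. Which measured values led to the choice of these genes is not known, so the p-values of these differences are not independent evidence about genes picked in advance.

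miR156 is a plant microRNA that lowers transcripts of SPL transcription factors. It is abundant in young shoots, keeps the plant in its juvenile phase, and declines as the plant ages, while miR172 increases. In maize its targets include tga1, the gene that shaped the naked kernel during domestication, and the dominant mutant Corngrass1, which makes excess miR156, stays juvenile. Several loci encode nearly the same mature miRNA, and each is first transcribed as a longer primary RNA that carries a hairpin precursor. The libraries of total RNA measured RNA from the precursor loci and not the mature miRNA.

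The features are 119 bases long for zma-MIR156d, 123 for zma-MIR156k and 167 for zma-MIR156f, against reads of 150 bp. RefSeq places them on the newer assembly Zm-B73-REFERENCE-NAM-5.0, where each of the 3 lies within an annotated long noncoding RNA gene. These are LOC118472037 for zma-MIR156d, LOC115032959 for zma-MIR156k and LOC115029010 for zma-MIR156f. In the whole miRNA set, 66 of 153 matched features (43.1%) lie within such a gene, and 7 of the 11 MIR156 features do. A read of full length cannot lie within the 2 shorter features. Which transcript gave the reads, how reads shared between family members were assigned and whether strand was used are not given in the sources used here. The value of a single member is uncertain in that respect.

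The FPKM values turned into whole reads in every library, with library totals of 19747198 to 28825226. Pairs of replicate libraries had Pearson coefficients of 0.9922 to 0.9968 over features on the log2 scale. Over the 24 libraries zma-MIR156k had 923 reads and zma-MIR156d 842, and both had reads in all 24. By mean FPKM they were number 4 (12.7 FPKM) and number 5 (11.8 FPKM) of the 154 miRNA precursor features. zma-MIR156f had 138 reads in 21 libraries and a mean of 1.36 FPKM. No leaf or root marker could be matched by name, so the tissue labels were not checked. In bulk tissue, fewer cells of a type and less RNA per cell cannot be told apart.

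The minimum for a comparison was that at least 1 of its groups had a mean of at least 10 reads per library, which does not make its other groups readable. Of 13 comparisons, 13 met this for zma-MIR156k, 12 for zma-MIR156d and 6 for zma-MIR156f. zma-MIR156d has too few reads to judge the salt response of SS roots, where it had 8.33 reads per library under salinity and 9.33 under water. zma-MIR156f has too few reads to judge in the roots of either cultivar and in ST shoots, where its group means were 1.0 to 7.67 reads. SS shoots under salinity, at 13.33 reads per library, were the one group of zma-MIR156f above the minimum. Its comparisons below the minimum are the salt responses of ST shoots, ST roots and SS roots, the cultivar difference in roots, the tissue difference in ST, and the differences of salt responses between cultivars in roots and between tissues in ST.

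**Figure D1:**
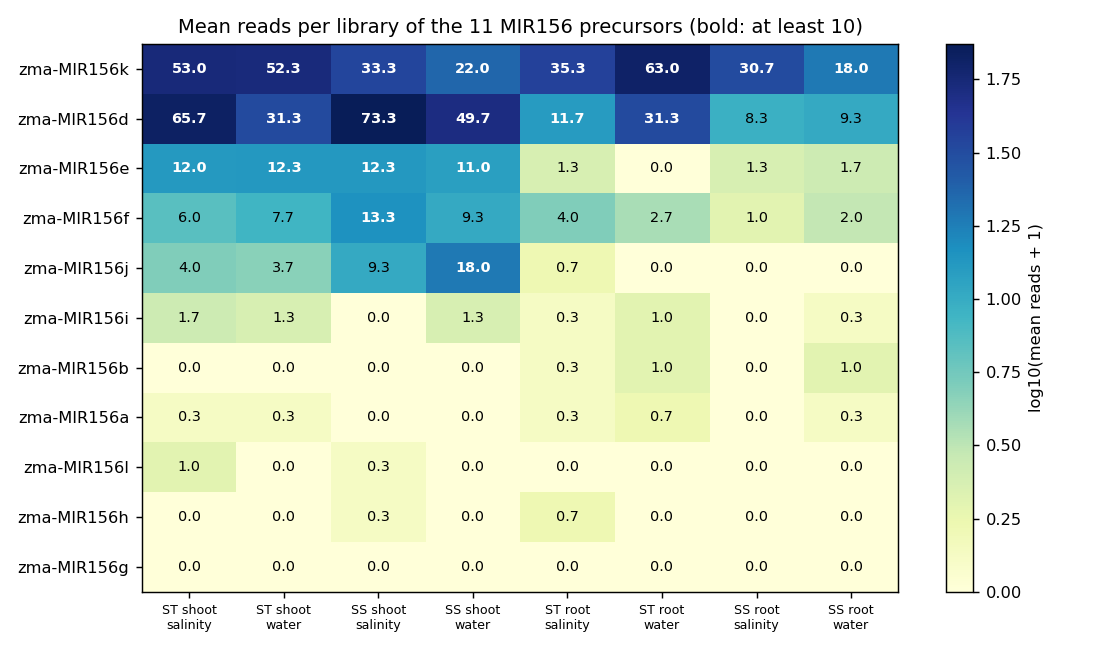
Mean reads per library (numbers in the cells, colour on a log10 scale) of the 11 MIR156 precursors (rows) in the 8 groups (columns), with values of at least 10 in bold. zma-MIR156k has at least 18.0 reads in each group, zma-MIR156d is below 10 in SS roots, and zma-MIR156f reaches 10 in SS shoots under salinity alone.

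zma-MIR156d stood above its root level in SS shoots under both treatments and in ST shoots under salinity. Its levels were 24.9, 20.2 and 27.4 FPKM in ST shoots under salinity and 8.84, 12.7 and 9.26 FPKM in ST shoots under water. In SS shoots they were 26.8, 18.3 and 23.1 FPKM under salinity and 16.9, 16.8 and 15.2 FPKM under water. Shoots under salinity were above those under water in each cultivar, with no overlap of libraries. In ST roots the levels were 4.54, 4.48 and 3.72 FPKM under salinity and 12.5, 10.05 and 7.74 FPKM under water. In SS roots they were 3.78, 2.58 and 2.43 FPKM under salinity and 2.13, 4.21 and 3.87 FPKM under water. ST roots under salinity were below ST roots under water in every library, while the SS root groups overlapped. By group mean, the order from the top was ST and SS shoots under salinity, SS and ST shoots under water, ST roots under water, ST roots under salinity, and SS roots under water and under salinity. Neighbours that overlapped in that order were the pair of salinity shoots, ST shoots and ST roots under water, and the lowest 3 root groups with each other.

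zma-MIR156k separated the cultivars in shoots and in water-treated roots. It stood at 18.2, 19.2 and 18.96 FPKM in ST shoots under salinity and at 22, 13.8 and 13.6 FPKM in ST shoots under water. SS shoots had 10.7, 9.47 and 9.91 FPKM under salinity and 5.23, 8.13 and 7.5 FPKM under water. All 6 ST shoot libraries lay above all 6 SS shoot libraries. ST roots had 9.1, 13.4 and 15.5 FPKM under salinity and 22.3, 17.9 and 18.6 FPKM under water. SS roots had 11.3, 11.9 and 7.73 FPKM under salinity and 8.23, 6.45 and 5.11 FPKM under water. The cultivars did not overlap in roots under water and overlapped in roots under salinity. The group means ran from 19.6 FPKM in ST roots under water to 6.6 FPKM in SS roots under water, and of the 7 pairs of neighbours in that order only SS shoots under salinity and under water did not overlap.

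zma-MIR156f was the weak member. ST shoots had 1.09, 2.97 and 0.527 FPKM under salinity and 1.8, 1.39 and 2.2 FPKM under water. SS shoots had 1.66, 3.15 and 4.24 FPKM under salinity, on 8, 14 and 18 reads, and 2.17, 2.66 and 1.68 FPKM under water. In roots the levels were 0 to 2.54 FPKM on 0 to 11 reads per library, and the highest value came from a single ST library under salinity whose group had 0 and 1 reads in the other two. All neighbours in its order of levels overlapped. Summed over a group, its reads ranged from 3 in SS roots under salinity (exact Poisson 95% interval 0.619 to 8.77) to 40 in SS shoots under salinity (28.6 to 54.5). These intervals cover counting error only. They are too narrow if a read pair entered the table as 2 reads.

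**Figure D2:**
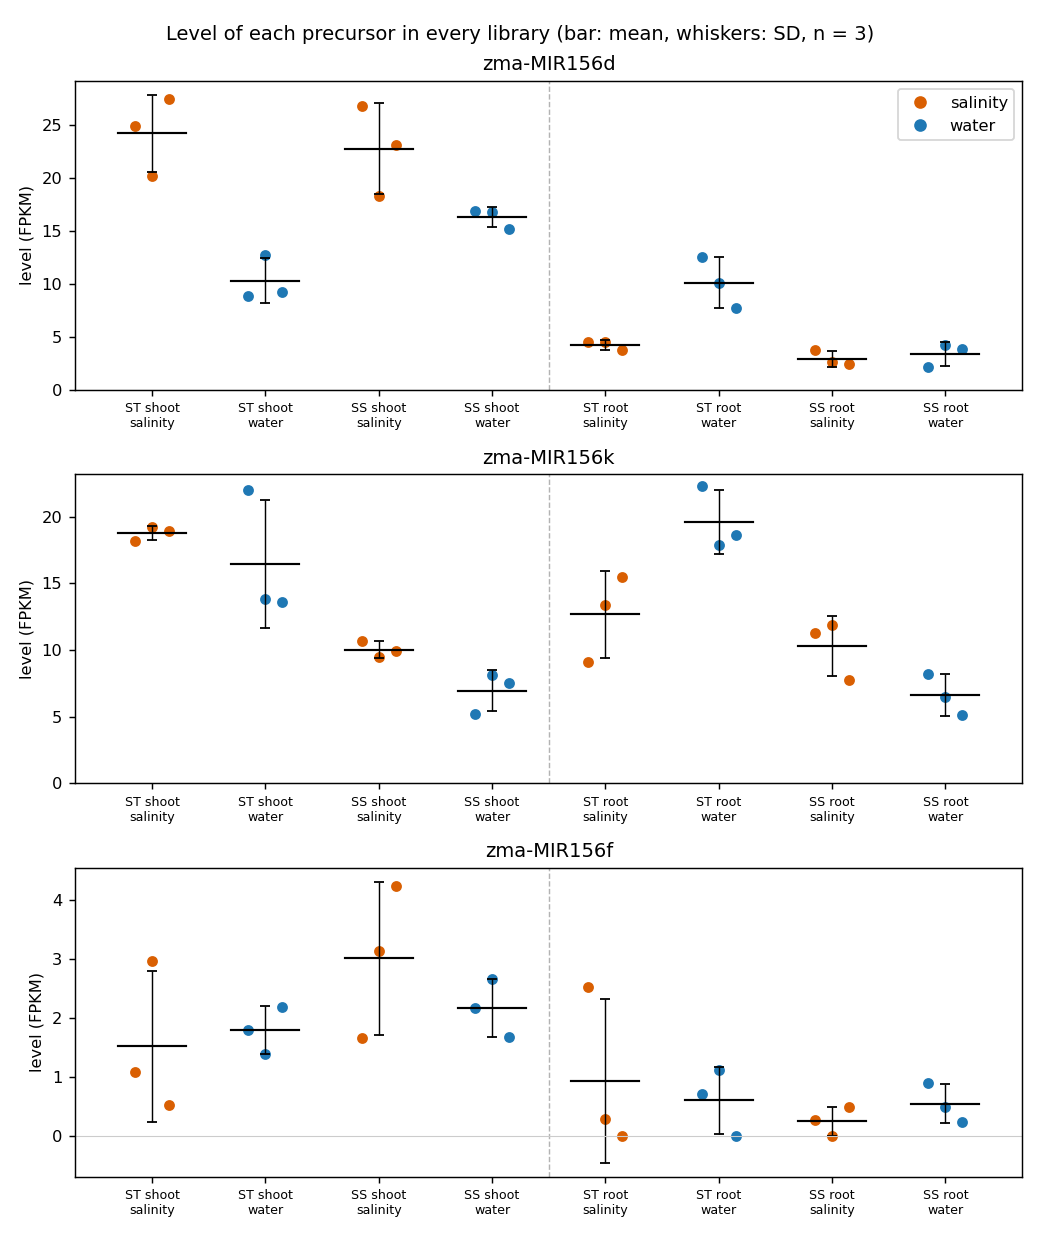
Level (FPKM, y axes differ) of zma-MIR156d, zma-MIR156k and zma-MIR156f in each library of the 8 groups, with the mean (bar) and SD (whiskers, n = 3). zma-MIR156d averages 24.2 FPKM in ST shoots and 4.25 FPKM in ST roots under salinity, against 10.3 and 10.1 FPKM under water.

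The SD between libraries exceeded the SD that the mean read number gives by counting in 4 of 8 groups for zma-MIR156d, 5 of 8 for zma-MIR156k and 4 of 8 for zma-MIR156f. The ratio of the SDs reached at most 1.6 for zma-MIR156d, 2.09 for zma-MIR156k and 2.67 for zma-MIR156f. An SD from 3 libraries can exceed that value by counting alone, so no spread beyond counting is read from these numbers.

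Between the cultivars, zma-MIR156d and zma-MIR156k were higher in ST than in SS roots, averaged over both treatments. The difference in log2(FPKM + 1) was 0.89 for zma-MIR156d (SE 0.14, limma adjusted p = 7.84e-05) and 0.86 for zma-MIR156k (SE 0.14, limma adjusted p = 9.33e-05, 6 libraries each). Of all 27109 features tested in roots, 78.1% were called, 45.5% higher in ST and 32.6% lower, so that a call alone does not set these genes apart. Under water both genes averaged 2.97 times as much in ST as in SS roots, with no overlap. Under salinity the ratios were 1.45 for zma-MIR156d and 1.23 for zma-MIR156k, and the libraries overlapped. Both averages thus rest mainly on the water groups. Their p-values concern the average and do not establish a cultivar difference under salinity. The differences of salt responses between the cultivars, given below, enter this split by treatment and were known when the genes were chosen. The SS root values of zma-MIR156d rest on 9.33 (water) and 8.33 (salinity) reads per library, below the minimum of 10. Libraries without overlap were found for 73.9% of features under water and 76.3% under salinity. Sequence differences between the cultivars and the reference can change how many reads are assigned to a feature, and their part in these differences was not tested.

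In shoots, the cultivar difference averaged over both treatments went in opposite directions for these genes. The levels of zma-MIR156d were lower in ST under water only, and under salinity its ratio of ST to SS was 1.06. zma-MIR156k was higher in ST by a log2 difference of 0.98 (SE 0.11, limma adjusted p = 2.15e-06, 6 libraries each), at 18.8 against 10.03 FPKM under salinity and 16.5 against 6.96 FPKM under water, with no overlap under either treatment. Of the 24810 features tested in shoots, 85.0% were called, 33.6% higher in ST and 51.4% lower, and 81.7% (salinity) and 81.9% (water) had libraries that did not overlap. zma-MIR156d was lower in ST by a difference of -0.27 (SE 0.10, limma adjusted p = 0.0244), a call lost after median-of-ratios scaling (-0.11, adjusted p = 0.315) and with voom on the reads (-0.30, adjusted p = 0.0666). The call was also lost without SS shoot salinity replicate 1, ST shoot water replicate 1 or 3, or ST shoot salinity replicate 2, with adjusted p of 0.0574 to 0.0676. Its libraries did not overlap between cultivars under water, at 10.3 ± 2.1 FPKM in ST and 16.3 ± 0.972 FPKM in SS shoots (SD, n = 3 each), and overlapped under salinity, at 24.2 ± 3.65 and 22.8 ± 4.26 FPKM. For zma-MIR156f the difference was -0.46 (95% interval -0.92 to 0.01, limma adjusted p = 0.0619) and did not pass. It passed without SS shoot salinity replicate 1 (adjusted p = 0.0173) or without ST shoot salinity replicate 2 (adjusted p = 0.00297). Of features called in shoots, 39.6% were higher in ST in the deposited values and 50% after that scaling, which moved the median feature by 0.15.

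Between the tissues, zma-MIR156d was higher in SS shoots under both treatments and in ST shoots under salinity. zma-MIR156k was called in neither cultivar as deposited. Averaged over the treatments, the shoot-minus-root difference of zma-MIR156d in ST was 1.14 (SE 0.13, 6 libraries each). In SS it was 2.30 (SE 0.13), with a limma adjusted p of 3.74e-13. In ST its mean was 5.69 times as high in shoots as in roots under salinity, without overlap, while under water the tissues overlapped at a ratio of 1.01. The ST average thus rests on the salinity groups. It is not separate from the salt responses known when the gene was chosen, so no p is given for it. In SS the ratio was 7.77 under salinity and 4.79 under water, both without overlap. The SS roots had 8.33 and 9.33 reads of zma-MIR156d per library, below the minimum of 10. Libraries of the tissues did not overlap for 89.8% (salinity) and 90.8% (water) of features in ST, and for 87.6% and 89.4% in SS. For zma-MIR156f the SS difference was 1.34 (SE 0.27), with 7 to 18 reads per shoot library and 0 to 3 per root library, or 2.56 with voom on the reads. No p is given for it, because all SS root libraries were under 1 FPKM and the gene failed the filter on low values among root libraries.

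For zma-MIR156k the shoot-minus-root difference was 0.15 in ST (95% interval -0.14 to 0.44, limma adjusted p = 0.317) and 0.03 in SS (-0.26 to 0.32, adjusted p = 0.894). These calls depend on the scaling. The median feature was lower in shoots in both cultivars, with a difference of -0.54 in ST and -0.33 in SS. Median-of-ratios scaling moved the median feature by 0.58 in ST and 0.37 in SS. It gave zma-MIR156k a call in both cultivars, at 0.80 in ST (adjusted p = 1.82e-05) and 0.41 in SS (adjusted p = 0.0098), and zma-MIR156d differences of 1.76 and 2.66. Of the 29127 features tested, 88.3% were called in ST, 22.1% higher in shoots and 66.2% lower. In SS 85.0% were called, 26.8% higher and 58.2% lower. Scaling changed the share of called features that were higher in shoots to 47.7%, against 25.1% unscaled, in ST and to 47.6%, against 31.5% unscaled, in SS.

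The cultivar difference of zma-MIR156d was itself different between the tissues. Shoots minus roots gave -1.16 (SE 0.19, 24 libraries), or -0.90 after median-of-ratios scaling. The ratio of ST to SS was 0.629 in shoots and 2.97 in roots under water, against 1.06 and 1.45 under salinity. The average thus rests mainly on the water groups. It contains the ST tissue difference given above without a p, so no p is given for it either. Its SS root groups had 8.33 (salinity) and 9.33 (water) reads per library, below the minimum of 10. For zma-MIR156k the shoots-minus-roots value was 0.12 (95% interval -0.29 to 0.53, limma adjusted p = 0.577), and 0.39 after median-of-ratios scaling (adjusted p = 0.0823). For zma-MIR156f it was -0.67 (-1.48 to 0.14). No p is given for it, because the gene failed the filter on low values among root libraries. Among all features, 75.7% were called for this difference, 24.6% higher and 51.1% lower. Of the called features 32.5% were higher before scaling and 50.4% after it.

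**Figure D3:**
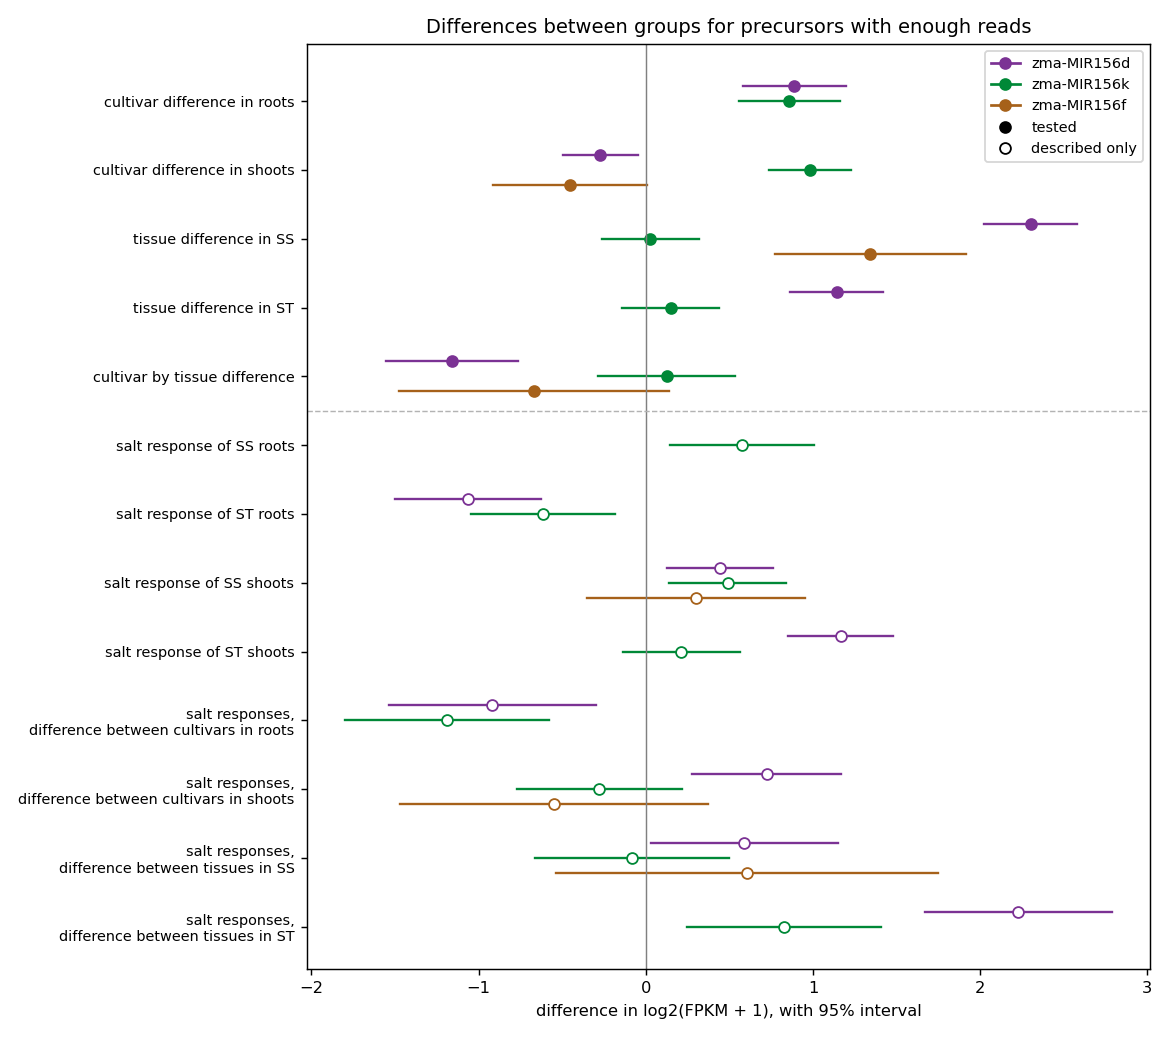
Differences in log2(FPKM + 1) with 95% intervals for zma-MIR156d, zma-MIR156k and zma-MIR156f where the minimum of reads was met; cultivar differences are ST minus SS, tissue differences shoot minus root, and salt responses salinity minus water. Filled points (tested) mark cultivar and tissue differences, and open points are descriptions. No p is given for the filled points of zma-MIR156d (tissue, ST, and cultivar by tissue) and zma-MIR156f (tissue, SS, and cultivar by tissue). zma-MIR156d lies at 2.30 for the tissue difference in SS and at 1.17 and -1.06 for the salt responses of ST shoots and ST roots.

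The salt responses below were known when the genes were chosen, and are given as values without a test. In ST, zma-MIR156d was higher under salinity in shoots and lower in roots. Its level under salinity was 2.36 times that under water in shoots and 0.42 times in roots, with no overlap in either tissue. Libraries without overlap were found for 54.8% of features in ST shoots and 53.3% in ST roots. The log2 differences were 1.17 in ST shoots (SE 0.15) and -1.06 in ST roots (SE 0.20). Shoots minus roots, these responses differed by 2.23 (SE 0.27). Under salinity zma-MIR156d had 58 to 74 reads per library in ST shoots and 10 to 14 in ST roots.

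In SS, the ratio of zma-MIR156d under salinity to that under water was 1.4 in shoots, with no overlap, against a background of 65.3% of features. The log2 difference was 0.44 (SE 0.15). The root ratio was 0.86 on 5 to 12 reads per library, too few to judge. The response in ST minus that in SS was 0.72 in shoots (SE 0.21) and -0.92 in roots (SE 0.28), where the SS value rests on these low reads. The shoot response minus the root response in SS, on the same low root reads, was 0.59 (SE 0.27).

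The salt response of zma-MIR156k had opposite signs in the roots of the cultivars. Its level under salinity was 0.646 times that under water in ST roots, with no overlap, and 1.56 times in SS roots, where 1 salinity library lay below the highest water library. Non-overlap was seen for 56.6% of features in SS roots. The log2 differences were -0.62 in ST roots and 0.57 in SS roots (SE 0.20 each), and the ST response was lower by a difference of -1.19 (SE 0.28). Under salinity the cultivars' root levels of zma-MIR156k came to 12.7 ± 3.25 FPKM in ST and 10.3 ± 2.25 FPKM in SS, against 19.6 ± 2.34 and 6.6 ± 1.57 FPKM under water (SD, n = 3 each). In shoots the ratios were 1.14 in ST, with overlap, and 1.44 in SS, without. The log2 differences were 0.21 in ST and 0.49 in SS (SE 0.16 each), which leaves -0.28 for ST minus SS (SE 0.23). Without ST shoot water replicate 1 the ST value was 0.43 and ST minus SS was -0.06, and without replicate 3 of that group the ST value was 0.10. Without SS shoot water replicate 1 the SS value was 0.32 and ST minus SS was -0.11. The shoot response of zma-MIR156k minus its root response was 0.83 in ST and -0.08 in SS (SE 0.28 each), and the SS value ran from -0.26 to 0.06 when single libraries were left out.

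For zma-MIR156f one salt response met the minimum, that of SS shoots. It was 0.30 on the log2 scale (SE 0.30, 95% interval -0.36 to 0.95), at 3.02 ± 1.29 FPKM under salinity and 2.17 ± 0.49 FPKM under water (SD, n = 3 each), and the groups overlapped. It was 0.57 without SS shoot salinity replicate 1, 0.08 without replicate 3 of that group and 0.18 without SS shoot water replicate 3. It was not tested, and no difference is read from it. Its differences from the responses of ST shoots and of SS roots rest on responses with too few reads to judge and are not read here.

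The ratio of zma-MIR156d to zma-MIR156k within a library does not depend on the library total. It was 1.37, 1.05 and 1.44 in ST shoots under salinity and 0.402, 0.916 and 0.681 in ST shoots under water. In SS shoots it was 2.5, 1.93 and 2.33 under salinity and 3.23, 2.07 and 2.02 under water. By FPKM, zma-MIR156d was thus the higher of the pair in SS shoots under both treatments and in ST shoots under salinity. In ST shoots under water zma-MIR156k was the higher. In roots the ratio was 0.24 to 0.499 in ST and 0.218 to 0.333 in SS under salinity, and 0.417 to 0.562 in ST and 0.258 to 0.758 in SS under water. zma-MIR156k had the higher FPKM of the pair in all 12 root libraries.

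**Figure D4:**
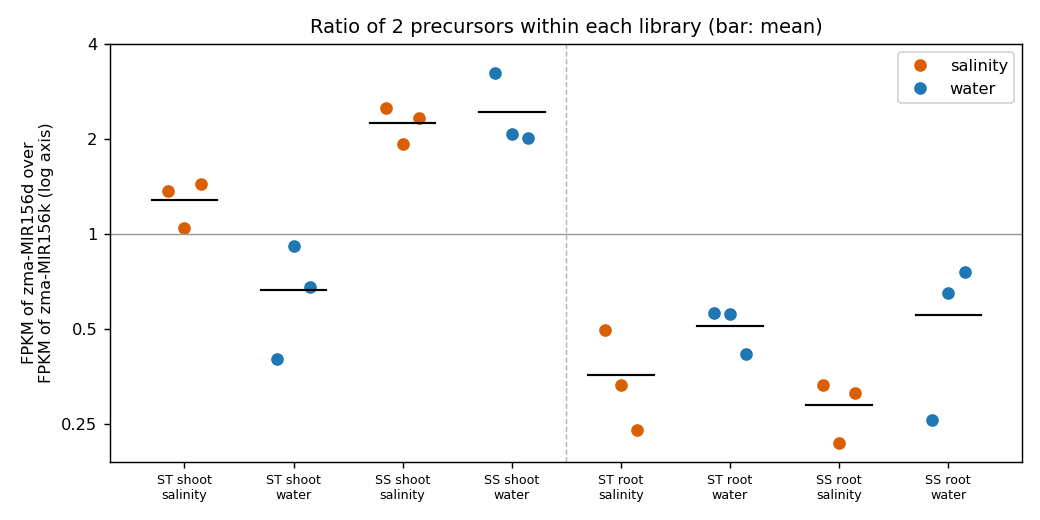
FPKM of zma-MIR156d divided by FPKM of zma-MIR156k in each library (log axis) for the 8 groups, with the mean as a bar. All 12 root libraries lie below 1, the SS shoot libraries lie between 1.93 and 3.23, and ST shoots lie above 1 under salinity and below 1 under water.

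The 3 genes held 86.3% of the 2204 reads of all MIR156 features. Their share by group ran from 72.8% in SS shoots under water to 97.3% in ST roots under water. Summed over the family, the level was 51.2 ± 2.08 FPKM in ST shoots under salinity and 34.1 ± 2.27 FPKM in ST shoots under water. In SS shoots it was 42.5 ± 4.19 FPKM under salinity and 34.9 ± 1.71 FPKM under water. In ST roots it was 19.1 ± 2.09 FPKM under salinity and 31.1 ± 5.23 FPKM under water, and in SS roots 13.9 ± 2.57 and 11.8 ± 1.55 FPKM (SD, n = 3 each). The family sum was therefore 31.1 to 34.9 FPKM in ST shoots, SS shoots and ST roots under water, against 11.8 FPKM in SS roots.

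Of the 8 other MIR156 features, 2 passed the filter in shoots and 0 in roots. zma-MIR156e had 11 to 12.33 reads per library in the 4 shoot groups and 0 to 1.67 in the 4 root groups. The gene passed the filter through its shoot libraries alone, so its shoot-minus-root differences of 2.08 in ST and 1.60 in SS are given without a test. Its cultivar difference in shoots of 0.12 did not pass (limma adjusted p = 0.418). zma-MIR156j had 0 reads in 11 of 12 root libraries. In shoots it had 1.41 ± 0.94 FPKM under salinity and 1.15 ± 0.196 FPKM under water in ST, and 2.81 ± 1.29 FPKM under salinity and 5.66 ± 1.8 FPKM under water in SS (SD, n = 3 each). It was lower in ST shoots by a difference of -1.14 (SE 0.20, limma adjusted p = 0.00013). In SS shoots the salt response, untested here, was -0.84 for zma-MIR156j (SE 0.28), with no overlap of libraries, and 0.07 for zma-MIR156e (SE 0.20). Non-overlap was seen for 65.3% of features in SS shoots. The other 6 features had 0 to 18 reads over the 24 libraries, with none for zma-MIR156g. The 4 zma-MIR172 features, of the family that acts after miR156, and zma-MIR529, a gene whose mature miRNA resembles miR156, also had 0 reads. Over all 24 libraries, 0 reads allow up to 0.0292 to 0.0686 FPKM at 3 reads. The targets tga1, ub2 and ub3 could not be paired with a feature name and were not analysed here.

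The feature most like zma-MIR156d over the 24 libraries was Zm00001d049295 (Pearson r of log2(FPKM + 1) 0.971, mean 53.6 FPKM), followed by Zm00001d037425 (0.953), among the 17734 features averaging 5 FPKM or more. Over the 8 group means these were again the first 2. Among miRNA precursors zma-MIR528a came nearest (0.715), but its r was 0.247 within shoots and -0.36 within roots, where zma-MIR168a was nearest (0.555 and 0.755). For zma-MIR156k the nearest were Zm00001d034516 (0.891) and Zm00001d024102 (0.863), and zma-MIR168b among precursors (0.724). Only 7 miRNA precursors averaged 5 FPKM or more and could be compared. Within roots the precursor nearest to zma-MIR156k was zma-MIR156d (0.698), while within shoots their r was -0.061. The 24 libraries share group structure and library totals, so these coefficients describe likeness only. Within shoots alone, 20 features were nearer to zma-MIR156d than Zm00001d049295 (0.904), and within roots 14 were (0.941). For zma-MIR156k, Zm00001d034516 was number 5 over group means, 193 within shoots and 6 within roots, and Zm00001d024102 was number 1, 318 and 354.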

How the data were processed

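Each of the 24 libraries had 1 deposited table of FPKM values, which the authors made per library; TopHat2, Cufflinks and Cuffdiff and the build B73 RefGen v3 are named, with no role, per the submitters' processing notes. The annotation and counting options are not given in the sources used here. A row naming no feature was left out. Whole reads were recovered as FPKM times length times library total (tolerance 0.002 reads), with totals set from the 153 miRNA features whose RefSeq lengths are known. All values (100%) of the 40811 features above 0 came out whole, and read recovery and the fits were tested on simulated data. No RefSeq coordinates are printed, as the builds differ.

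The R package limma (3.58.1, under R 4.3.3) was used for tests on log2(FPKM + 1), with a mean-variance trend and Benjamini-Hochberg adjustment over all features with at least 1 FPKM in at least 3 libraries of the fit. The 12 libraries of a tissue, or all 24 where both tissues entered, were fitted as groups. The pseudocount of 1 understates changes of low features such as zma-MIR156f. Named were the 3 genes, the MIR156, MIR172 and MIR529 features, and the features most alike in pattern. The genes and lists were chosen with earlier results of these data known. Alternatives were a pseudocount of 0.1, no filter, a filter of 5 FPKM, median-of-ratios scaling, voom on the recovered reads, other sets of libraries, a replicate block and leaving out each library. Tables and plots used Python 3.11.15, pandas 2.3.3, scipy 1.17.1 and matplotlib 3.10.9.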

Additional observations from a re-analysis of the deposited data

Results flagged for a closer look

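Both results here concern zma-MIR156d. Its cultivar difference, ST minus SS, differed between shoots and roots by -1.16 in log2(FPKM + 1), averaged over both treatments (SE 0.19). After median-of-ratios scaling it was -0.90. Of all features, 75.7% were called for this difference, 51.1% lower, and the median feature stood at -0.20. Under water the ratio of ST to SS was 0.629 in shoots and 2.97 in roots, against 1.06 and 1.45 under salinity. The SS root groups had 8.33 and 9.33 reads per library, below the minimum of 10. No p is given for it, as above.

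Its salt response in ST went in opposite directions in the tissues. All 3 salinity libraries of ST shoots lay above all 3 water libraries, and all 3 salinity libraries of ST roots lay below all 3 water libraries. Non-overlap in either direction was seen for 54.8% of features in ST shoots and 53.3% in ST roots. The responses differed by 2.23 on the log2 scale, a difference that was not tested here because it was known when the gene was chosen. It was 2.08 to 2.39 when single libraries were left out.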

How the results depend on the processing

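Of 277 refits of the 13 cultivar and tissue differences that met the minimum of reads, 260 kept direction and call, and 8 of these differences did so in every refit. The 13 include those given above without a p. Among the 8 are the tissue differences of zma-MIR156f in SS and zma-MIR156d in ST, given without a p. The cultivar by tissue difference of zma-MIR156d, also without a p, is another. The cultivar by tissue difference of zma-MIR156k is also among the 8, and it did not pass. Of 291 refits of the 18 salt responses and their differences, 288 kept the direction, and calls were not compared. Those that changed, and other values that moved, are given here; no cause was tested. The cultivar difference of zma-MIR156d in shoots (-0.27) lost its call with median-of-ratios scaling (-0.112), voom (-0.298) and all 24 libraries in the fit (-0.273, adjusted p = 0.0691), and was -0.347 to -0.212 without single libraries. The tissue difference of zma-MIR156k gained a call with median-of-ratios scaling (0.804 in ST and 0.413 in SS) and ran from -0.062 to 0.109 in SS without single libraries. For zma-MIR156f, leaving out libraries gave -0.647 to -0.302 for the cultivar difference in shoots and -0.863 to -0.397 for the cultivar by tissue difference. Its difference of salt responses between SS tissues (0.60) was 1.477 with a pseudocount of 0.1 and 1.397 with voom. With a minimum of 20 reads 0 of its comparisons met it, against 6 at 10 reads and 9 at 5. With too few reads to judge, its salt response in ST shoots ran from -0.635 to 0.055 and the difference of its salt responses between ST tissues from -0.743 to 0.188 without single libraries. Depth limits zma-MIR156f and zma-MIR156d in SS roots.

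No sign of pairing by the replicate numbers of the labels was seen. Deviations of same-numbered libraries from their group means correlated at -0.095 to 0.098 over 36 pairs. Such low values cannot show whether same-numbered libraries shared plants or a batch, which the labels do not say. With the numbers as a replicate block, 0 of the 13 cultivar and tissue differences changed call or direction and 0 of the 18 others changed direction, and the cultivar difference of zma-MIR156d in roots stayed at 0.888 (adjusted p = 0.000199).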
